A study of Mus musculus with 16 samples.

Results

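The immediate early response genes Egr1, Egr2, Egr3, Klf2, Klf4, Klf6, Klf10, Nr4a1 and Ier2 were described in neural stem cell (NSC) cultures with and without the tuberous sclerosis gene Tsc2. They were chosen by symbol as zinc finger, nuclear receptor and related early genes, 9 of the 24946 genes in each of the tables, and all 9 passed the filter on low values in every comparison. In total RNA Klf2, Klf4, Klf6 and Nr4a1 were higher in the mutant cultures and Klf10 was lower. The mutant cultures did not behave alike, since cultures 1 and 3 were highest for most members, whereas cultures 2 and 4 stood nearer to the controls. In polyribosomal RNA Klf2 and Klf6 were higher and Klf10 was lower, and the translational efficiency of Egr1, Egr3 and Klf4 was lower in the mutant cultures. The efficiency calls depended on the variance model, and those of Egr1 and Klf4 also on single cultures.

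Immediate early genes are transcribed within minutes of a stimulus such as a growth factor, from transcription factors that are already present in the cell, so that no new protein has to be made first. Kinases of the ERK pathway act on ternary complex factors bound with SRF at CArG boxes, and other kinases act on CREB and ATF proteins at cAMP response elements. Their mRNAs are usually short-lived and are held higher when protein synthesis is blocked, as by cycloheximide. EGR proteins bind GC-rich sites through zinc fingers and KLF proteins bind GC boxes and CACCC elements. Nr4a1 encodes an orphan nuclear receptor, and Ier2 encodes a small nuclear protein.

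Cultures were grown from the V-SVZ (ventricular-subventricular zone), where NSCs line the lateral ventricles, of neonatal mouse pups, and were passaged once in medium with EGF and FGF. The first group held 4 cultures labelled TSC, from pups in which conditional Tsc2 alleles were recombined after tamoxifen by a CRE-ERT2 driven by the Nestin promoter, with a red fluorescent reporter, so that only Nestin-expressing cells and their progeny were targeted. The second group held 4 cultures labelled Control, with wild-type Tsc2 alleles. The study's methods describe tamoxifen for the pups of both groups, and read as if both were on the Cre and reporter background, without giving it per culture. Every dish of both groups received cycloheximide for 15 min before lysis, and RNA was taken both from the whole lysate (total RNA) and from the heavy 3 mL fraction of a 17.5% to 50% sucrose gradient (polyribosomal RNA), where transcripts carry several ribosomes. The animals and litters behind each culture were not given, so the p-values reflect only how these cultures vary.

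Tsc2 was at 7076, 6811, 6190 and 5592 normalized reads in total RNA of mutant cultures 1 to 4, against 7836, 6817, 6232 and 6701 in control cultures 1 to 4, which overlapped (log2 change -0.10 with an SE of 0.10, adjusted p = 0.422 by limma). The polyribosomal level of Tsc2 fell by 0.49 ± 0.15 (log2, adjusted p = 0.0389 by limma), and whether reads fell in the recombined part of the gene was not tested. Estimated depth ran from 24.7 M to 139 M reads in the total RNA libraries and from 51.7 M to 268 M in the polyribosomal ones. The summed NSC markers were at 885293 to 1013670 normalized reads in mutant and at 863870 to 1004020 in control total RNA, and of the 8 markers Sox9 (log2 change 0.68) and Olig1 (0.32) were called higher and Fabp7 (-0.65) lower. Sex was unbalanced, since the mean log2 level of 4 Y-linked genes in total RNA was 10.1 in mutant culture 1 and 1.00 to 3.71 in mutant cultures 2 to 4, against 9.92 to 10.4 in control cultures 1 to 3 and 5.94 in control culture 4. Of 12 proliferation genes, a list added after the values were seen, 10 were lower and 0 higher in mutant total RNA (median log2 change -0.69). Of all genes tested in total RNA, 19.7% were called higher and 20.7% lower. The mean log2 level of the proliferation genes was 13.5 and 13.1 in mutant cultures 1 and 3 and 14.1 and 13.9 in mutant cultures 2 and 4, against 14.2 to 14.5 in controls. The paper, by contrast, reported slightly faster self-renewal of mutant NSCs in monolayers, from cell numbers in long-term cultures. In bulk RNA, fewer cells of a type and less RNA per cell cannot be told apart.

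The members differed widely in level. Per kilobase of transcript, control total RNA averaged 3717 ± 290 normalized reads for Ier2 and 3522 ± 204 for Egr1 (SD, n = 4), whose ranges overlapped. Klf10 followed at 2330 ± 430 and Klf6 at 1689 ± 171, with no overlap between them. Nr4a1 stood at 285 ± 6.30, and Egr2 at 168 ± 32.6, Klf4 at 165 ± 14.3 and Klf2 at 128 ± 14.2 overlapped as neighbours. Egr3 was lowest at 59.7 ± 19.0. In mutant total RNA the order per kilobase was Egr1 (3725 ± 1352), Ier2 (3417 ± 686), Klf6 (2811 ± 941), Klf10 (1691 ± 254), Klf2 (1416 ± 1064), Klf4 (699 ± 557), Nr4a1 (485 ± 178), Egr2 (240 ± 89.7) and Egr3 (109 ± 50.8), so Klf2 and Klf4 stood above Nr4a1 and Egr2 in the mutant mean. With SDs of this size, Klf2 overlapped with each of its neighbours among the mutant cultures.

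Klf2 encodes a Krüppel-like factor best known in endothelial cells and in resting lymphocytes. It was at 4179, 539, 4405 and 1341 normalized reads in total RNA of mutant cultures 1 to 4, against 217, 275, 231 and 225 in control cultures 1 to 4. Every mutant culture lay above every control culture, cultures 1 and 3 by far the most. The log2 change was 3.01 ± 0.59 (limma adjusted p = 0.0055), and 3.62 without mutant culture 2. In polyribosomal RNA Klf2 was at 6528, 642, 6881 and 1456 in mutant cultures, against 280, 350, 325 and 368 in control cultures. The same 2 cultures were highest and the genotypes did not overlap there either (log2 change 2.95 ± 0.77, limma adjusted p = 0.0339). Without mutant culture 2 that change was 3.61, and the call was lost without mutant culture 1 or 3 or any 1 control culture, with limma adjusted p from 0.0579 to 0.0863.

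Klf4, one of the factors used to reprogram cells to pluripotency and a brake on proliferation in epithelia, was at 2205, 712, 4463 and 1094 normalized reads in total RNA of mutant cultures, against 536, 486, 447 and 535 in control cultures. All mutant cultures lay above all controls, with culture 3 highest and culture 2 closest to the controls. The log2 change was 1.73 ± 0.46 (limma adjusted p = 0.0153), and the adjusted p was 0.0502 without control culture 3. In polyribosomal RNA it was at 1183, 436, 2363 and 604 in mutant cultures, against 431, 386, 356 and 392 in control cultures. The genotypes again did not overlap, but the change of 1.24 ± 0.44 did not pass the test (limma adjusted p = 0.0672). It passed without mutant culture 2, at 1.61 (limma adjusted p = 0.00906).

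Klf6, a broadly expressed Krüppel-like factor, was at 14772, 7614, 15718 and 9399 normalized reads in total RNA of mutant cultures, against 6059, 7381, 7592 and 7506 in control cultures. Mutant cultures 1 and 3 were high, and mutant culture 2 lay barely above the highest control. The log2 change was 0.68 ± 0.21 (limma adjusted p = 0.0293), and the call was lost without mutant culture 1 or 3 or any 1 control culture (limma adjusted p from 0.0510 to 0.0825). In polyribosomal RNA Klf6 was at 4752, 3583, 5846 and 3895 in mutant cultures, against 3153, 2865, 2765 and 2914 in control cultures. There the genotypes were apart for every culture (log2 change 0.60 ± 0.15, limma adjusted p = 0.0176, and 0.0521 without control culture 3).

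Klf10, also known as a TGF-beta inducible early gene, went the other way. It was at 5910, 5542, 5011 and 4130 normalized reads in total RNA of mutant cultures, against 6056, 6341, 8962 and 7004 in control cultures. All mutant cultures lay below all controls, although mutant culture 1 and control culture 1 were close. The log2 value fell by 0.46 ± 0.14 (limma adjusted p = 0.0294), and the call was lost without mutant culture 3 or 4 or control culture 3 or 4 (limma adjusted p from 0.0568 to 0.0718). In polyribosomal RNA Klf10 was at 3891, 3863, 4388 and 2805 in mutant cultures, against 5386, 5003, 6502 and 5710 in control cultures. The gap was wider there, and it fell by 0.61 ± 0.15 (limma adjusted p = 0.0158, and 0.0537 without control culture 3).

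**Figure D1:**
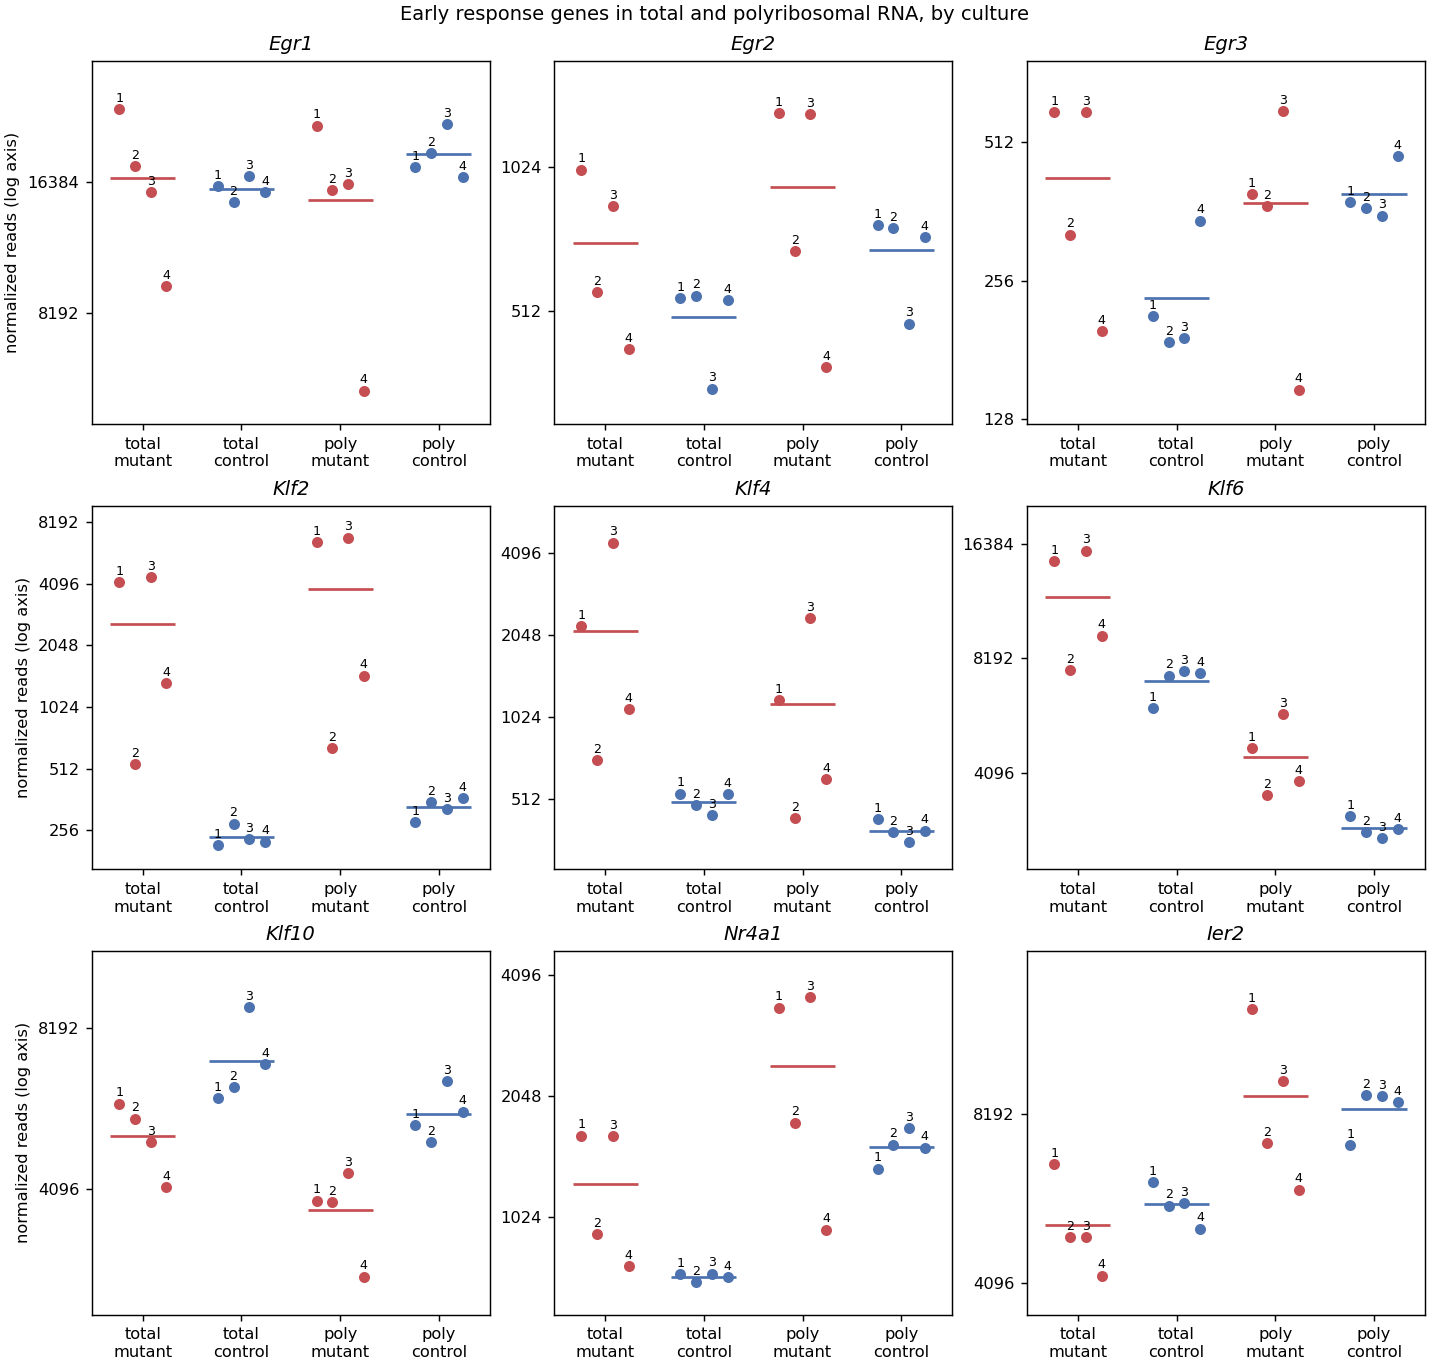
Normalized reads (log axis) of each of the 9 genes in the 4 mutant and 4 control cultures, in total and polyribosomal (poly) RNA; points are libraries numbered by culture and bars are group means. Klf2 and Klf4 lay above the controls in every mutant culture, with cultures 1 and 3 highest, whereas the Egr1 points of both genotypes overlapped.

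Egr1, the founding member of its family and a sensitive readout of ERK activity, was abundant in both genotypes. It was at 24073, 17814, 15511 and 9406 normalized reads in total RNA of mutant cultures, against 16049, 14712, 16890 and 15523 in control cultures. The mutant cultures spread to both sides of the tight controls, so the change was 0.00 ± 0.23 (limma adjusted p = 0.991). In polyribosomal RNA Egr1 was at 22110, 15690, 16206 and 5413 in mutant cultures, against 17736, 19083, 22262 and 16824 in control cultures. Culture 4 was far below the rest in both fractions, and the change of -0.51 ± 0.38 did not pass the test (limma adjusted p = 0.344).

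Egr2, needed for hindbrain patterning and for myelination by Schwann cells, was at 1010, 561, 849 and 426 normalized reads in total RNA of mutant cultures, against 546, 552, 353 and 540 in control cultures. Mutant cultures 1 and 3 were high and the genotypes overlapped (log2 change 0.46 ± 0.26, limma adjusted p = 0.183, and 0.0486 without mutant culture 4). In polyribosomal RNA it was at 1326, 683, 1321 and 391 in mutant cultures, against 773, 762, 482 and 731 in control cultures (0.29 ± 0.36, limma adjusted p = 0.584). Egr3, an EGR factor needed for muscle spindle development, was at 596, 323, 596 and 198 in total RNA of mutant cultures, against 215, 188, 192 and 346 in control cultures. Again mutant cultures 1 and 3 were highest and the ranges overlapped (0.77 ± 0.35, limma adjusted p = 0.102, and 0.0198 without mutant culture 4). In polyribosomal RNA Egr3 was at 395, 372, 599 and 148 in mutant cultures, against 379, 369, 355 and 479 in control cultures, so culture 1 was not high there (-0.22 ± 0.34, limma adjusted p = 0.675).

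Nr4a1 was at 1632, 930, 1625 and 772 normalized reads in total RNA of mutant cultures, against 740, 706, 741 and 727 in control cultures. The controls were close together and every mutant culture lay above them, culture 4 only just (log2 change 0.69 ± 0.23, limma adjusted p = 0.0356). That call was lost without mutant culture 1 or 3 or any 1 control culture (limma adjusted p from 0.0611 to 0.0975). In polyribosomal RNA Nr4a1 was at 3400, 1759, 3606 and 954 in mutant cultures, against 1351, 1550, 1701 and 1524 in control cultures. Culture 4 then lay below the controls (0.48 ± 0.37, limma adjusted p = 0.370), and without it the change was 0.87 (limma adjusted p = 0.0250). Ier2 was at 6680, 4947, 4951 and 4222 in total RNA of mutant cultures, against 6199, 5627, 5684 and 5121 in control cultures. It overlapped between genotypes in total RNA (-0.14 ± 0.13, limma adjusted p = 0.412) and in polyribosomal RNA, where it was at 12629, 7273, 9373 and 6008 in mutant cultures, against 7220, 8855, 8831 and 8613 in control cultures (0.02 ± 0.20, limma adjusted p = 0.946).

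Of the 9 members, 4 were called higher and 1 lower in total RNA, where 19.7% of the 14967 genes tested were called higher and 20.7% lower. In polyribosomal RNA 2 members were called higher and 1 lower, against 11.7% higher and 11.9% lower of 14412 genes. The median log2 change of the members was 0.68 in total and 0.29 in polyribosomal RNA, against 0.01 for all tested genes in each table. A scaling to equal column totals moved the median of all genes to 0.11 in total and 0.13 in polyribosomal RNA, and split the calls into 3833 higher and 2263 lower in total and 2583 higher and 929 lower in polyribosomal RNA, beside 2944 and 3091 in total and 1690 and 1713 in polyribosomal RNA as deposited. Equal upper quartiles gave 3568 and 2498 in total and 2188 and 1211 in polyribosomal RNA. When the mean level of the Y-linked genes entered the fit, Klf2 in total RNA was the 1 member still called in any comparison (log2 change 3.56, limma adjusted p = 0.0431). Of all genes, that fit called 1063 in total RNA, 30 in polyribosomal RNA and 0 in efficiency. The Y-linked level was itself unbalanced between the genotypes, so this fit cannot fully tell sex and genotype apart.

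**Figure D2:**
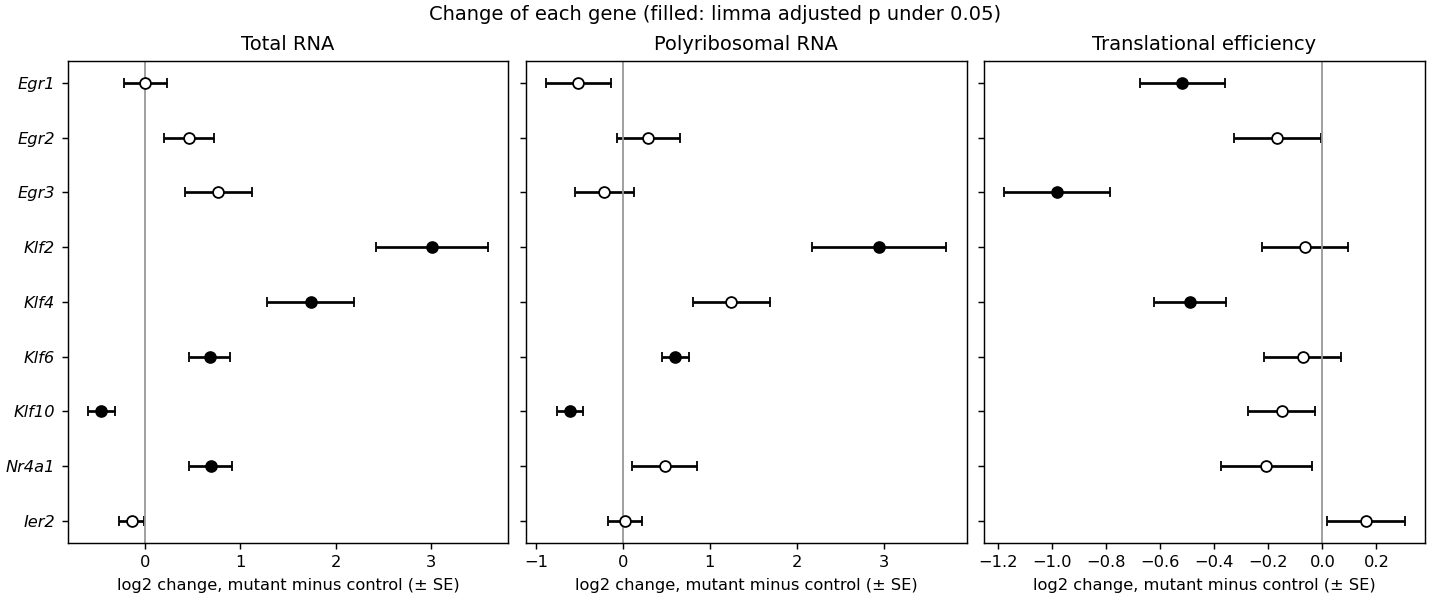
Log2 change of each gene, mutant minus control, with its standard error, in total RNA, polyribosomal RNA and translational efficiency (4 cultures per genotype); filled points passed the test (limma adjusted p under 0.05). The largest change was that of Klf2, 3.01 in total and 2.95 in polyribosomal RNA, and the 3 called changes of efficiency, for Egr1, Egr3 and Klf4, were all below 0.

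Translational efficiency was taken as the log2 ratio of polyribosomal to total RNA of each culture, and its difference between genotypes was tested as an interaction. Relative to the control mean, the ratio of Egr3 was -1.38, -0.58, -0.78 and -1.20 in mutant cultures 1 to 4, against 0.03, 0.19, 0.10 and -0.32 in control cultures. All mutant cultures lay below all controls, and the log2 ratio fell by 0.98 ± 0.20 (limma adjusted p = 0.00766). For Klf4 the ratio was -0.54, -0.35, -0.56 and -0.50 in mutant cultures, against 0.04, 0.02, 0.03 and -0.09 in control cultures. This was the tightest of the 3 differences, and it fell by 0.49 ± 0.13 (limma adjusted p = 0.0247). The Klf4 call was lost without mutant culture 1 or 3 or control culture 2 or 3 (limma adjusted p from 0.0648 to 0.0810). For Egr1 the ratio was -0.38, -0.44, -0.20 and -1.06 in mutant cultures, against -0.11, 0.12, 0.14 and -0.14 in control cultures. Culture 4 was lowest, and the ratio fell by 0.52 ± 0.16 (limma adjusted p = 0.0407). The Egr1 call was lost without mutant culture 1, 2 or 4 or control culture 2, 3 or 4 (limma adjusted p from 0.0503 to 0.119).

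Of the 9 members 0 were called higher and 3 lower in translational efficiency, against 5.07% higher and 7.89% lower of 14333 genes (0 members higher and 3 lower at an unadjusted p under 0.05). Klf2, whose RNA level changed most, had a ratio change of -0.06 ± 0.16 (limma adjusted p = 0.820), with cultures 1 and 3 at 0.17 each. Klf6, Klf10, Nr4a1 and Egr2 had changes of -0.07 to -0.21 and Ier2 of 0.16, none of which passed the test. The median of the members was -0.17, against 0.01 for all genes. All genes split into 727 higher and 1131 lower calls, and into 920 and 946 with equal column totals. The efficiency calls depended on the variance model: limma without a variance trend and robust moderation called 0 genes, although 3980 genes had an unadjusted p under 0.05, and the adjusted p of both Egr3 and Klf4 then lay just above the threshold, at 0.05004.

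**Figure D3:**
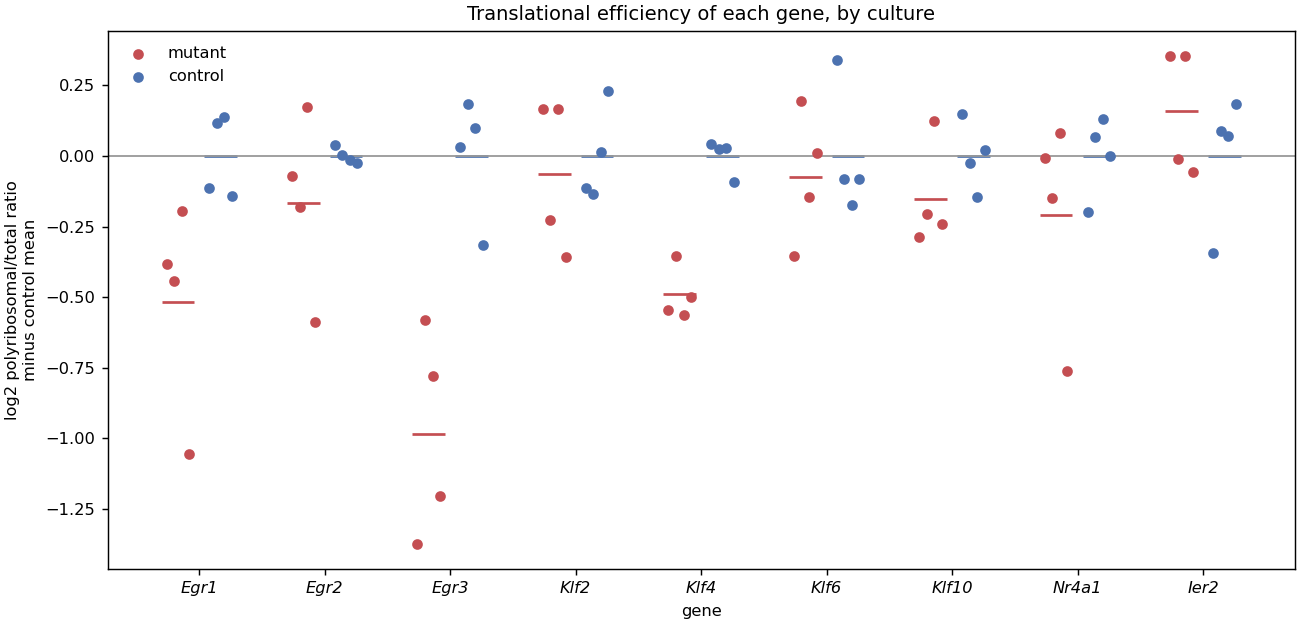
Log2 ratio of polyribosomal to total RNA, relative to the control mean, of each gene in the 4 mutant (red, left) and 4 control (blue, right) cultures; points are cultures and bars are group means. For Egr1, Egr3 and Klf4 all 4 mutant cultures lay below all 4 control cultures.

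The members shared an order of the mutant cultures. In total RNA cultures 1 and 3 both lay above cultures 2 and 4 for 7 of 9 members, against 23.4% of all genes tested, the exceptions being Egr1 and Klf10, and Ier2 did so narrowly. In polyribosomal RNA they did so for 9 of 9 members, against 26.9% of all genes. The margin over culture 2 was narrow for Klf10 (3891 against 3863), Egr3 (395 against 372) and Egr1 (16206 against 15690). The members are not independent of each other, and this order was seen in the data before it was counted, so no test was made. At the lower end the members fell into the same sets in both fractions. Culture 2 was the lowest mutant culture for Klf2, Klf4 and Klf6, and culture 4 was the lowest for Egr1, Egr2, Egr3, Klf10, Nr4a1 and Ier2.

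Relative to the control mean, Klf2 in total RNA was at 4.14 and 4.22 on the log2 scale in mutant cultures 1 and 3, and at 1.19 and 2.50 in cultures 2 and 4. Nr4a1 was at 1.16 in each of cultures 1 and 3, and at 0.35 and 0.08 in cultures 2 and 4. The mutant SD of Klf2 on the log2 scale, 1.45 in total RNA, was above that of 99.2% of tested genes, and that of Klf4, 1.16, above 98.6%. The control SDs in total RNA lay between that of Nr4a1 (0.03), above 1.63% of genes, and that of Egr3 (0.41), above 86.2%. Without mutant cultures 1 and 3, a choice made after seeing the data, Klf2 (log2 change 1.84, limma adjusted p = 0.0140) and Klf4 (0.82, limma adjusted p = 0.0257) were still called in total RNA. Klf6 (0.25, limma adjusted p = 0.203) and Nr4a1 (0.22, limma adjusted p = 0.257) were not, and 0 genes of all were called in efficiency by limma, with 3250 at an unadjusted p under 0.05. Without cultures 2 and 4, which had the highest microglial markers, Klf2 changed by 4.18 in total and 4.34 in polyribosomal RNA. In polyribosomal RNA 5 members were then called higher. Those cultures were also the lower ones for most members, so leaving them out raises the members' changes in itself. More of all genes were called in polyribosomal RNA there too, 5402 against 3403 with all cultures.

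In mutant total RNA, the summed endothelial, mural and fibroblast, and neuron markers were higher in cultures 1 and 3 than in 2 and 4. The summed microglia and choroid plexus markers did not follow that order. In polyribosomal RNA the neuron and choroid plexus sums followed it, and the other sums did not. The 15 summed microglia markers were at 7657, 29197, 6387 and 16176 normalized reads in total RNA of mutant cultures, against 5755, 6813, 4604 and 6788 in control cultures, so they were highest in mutant cultures 2 and 4. Of those 15 markers 5 were called higher in total RNA. Of all genes tested 19.7% were called higher there, and the lists below stand beside the same share. Klf2 and Klf4 are also expressed in endothelium, whose 10 summed markers were at 3123, 2577, 4136 and 2805 in mutant cultures, against 2215, 1837, 1231 and 2543 in control cultures. Most of that sum was Flt1, at 2865, 2323, 3852 and 2539 in mutant cultures and 2016, 1614, 1058 and 2339 in control cultures. Of these 10 markers 2 were called higher in total RNA, a share near that of all genes, namely Cdh5 (log2 change 0.78 ± 0.20, limma adjusted p = 0.0122) and Flt1 (0.75 ± 0.24, limma adjusted p = 0.0292). Of the 8 tested, 7 had a log2 change above 0 (median 0.28). In polyribosomal RNA 0 of the 4 tested were called. Cdh5 was at 112, 98.1, 114 and 126 in mutant cultures, against 69.8, 83.1, 52.2 and 57.4 in control cultures, so every mutant culture lay above every control and culture 4 was highest. Cldn5, another defining marker, was at 0 to 4.37 in mutant and 1.65 to 4.06 in control total RNA. The 8 summed mural and fibroblast markers were at 1957, 1826, 2412 and 1888 in mutant cultures, against 2101, 1026, 637 and 1010 in control cultures. Of the 7 tested, 7 had a log2 change above 0 in total RNA (median 0.92), and Pdgfrb (0.95 ± 0.28) and Rgs5 (1.42 ± 0.49) were called higher. The 6 summed choroid plexus markers were at 316, 173, 2578 and 404 in mutant cultures, against 134, 86.4, 101 and 93.9 in control cultures. These were highest in culture 3, mostly through Ttr at 2281. Of 4 choroid plexus markers tested, 2 were called higher in total RNA (Ttr and Folr1) and 4 in polyribosomal RNA (Ttr, Folr1, Clic6 and Aqp1). In polyribosomal RNA 11.7% of all genes tested were called higher. The 6 summed neuron markers were at 2393, 1307, 2041 and 1177 in mutant cultures, against 961, 1187, 1241 and 1263 in control cultures, and were thus highest in mutant cultures 1 and 3, mostly through Syn1. Syn1 was the 1 of the 6 called higher, a share near that of all genes. The part of these cells, and of the lower proliferation genes of cultures 1 and 3, in the members' levels was not tested.

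**Figure D4:**
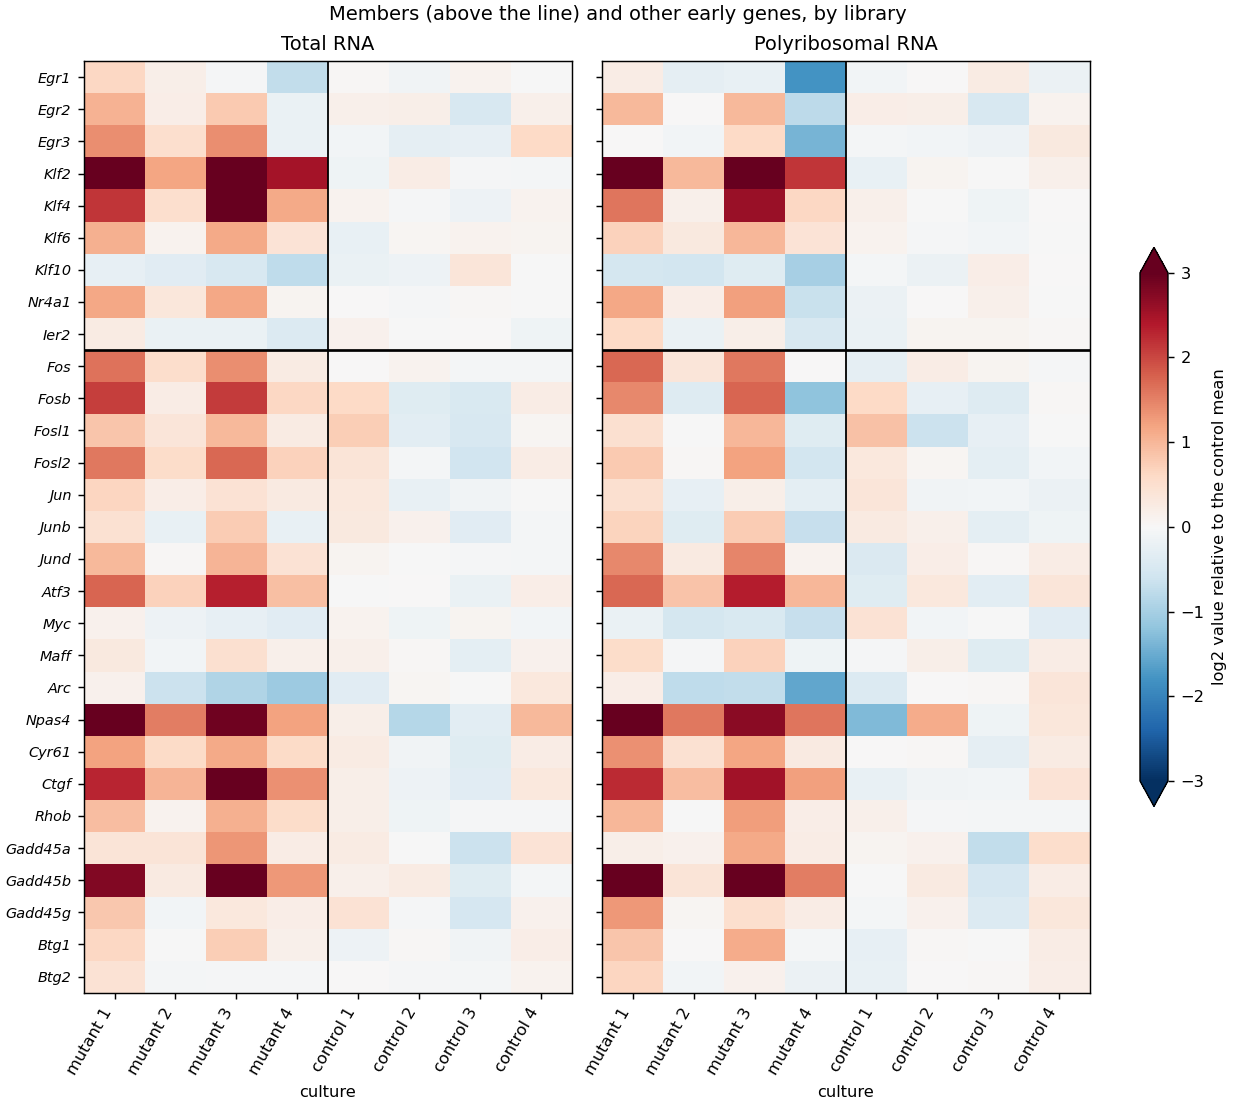
Log2 value relative to the control mean of the 9 members (above the line) and of 20 other early genes, in the 4 mutant and 4 control libraries of total and polyribosomal RNA; colours are limited to 3 on each side. Mutant cultures 1 and 3 were the darkest red columns for Klf2, Klf4, Nr4a1, Fos, Atf3, Npas4 and Gadd45b.

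Among the other early genes, more were higher than lower in the mutant cultures. Of 20 FOS, JUN and other early genes 11 were higher and 0 lower in total RNA, with a median log2 change of 0.61, where 19.7% of all genes tested were called higher and 20.7% lower (14 of the 20 passed an unadjusted limma p under 0.05). Atf3, a stress-induced bZIP factor, was at 1436, 681, 2126 and 795 normalized reads in mutant total RNA, against 420, 428, 369 and 489 in controls (1.42 ± 0.31, limma adjusted p = 0.00748). Npas4, an activity-dependent factor of neurons, was low throughout, at 179, 50.7, 134 and 40.4 in mutant cultures, against 19.2, 8.91, 13.4 and 33.9 in control cultures (2.25 ± 0.53, limma adjusted p = 0.00940). The YAP and SRF target genes Ctgf and Cyr61 changed by 1.97 ± 0.40 and 0.88 ± 0.18. In polyribosomal RNA 4 of the 20 were higher, namely Atf3, Npas4, Cyr61 and Ctgf, and 0 were lower by limma (10 passed an unadjusted p under 0.05 in either direction). In efficiency 0 were higher and 2 were lower, Fosb by 0.85 ± 0.26 and Fosl2 by 0.77 ± 0.17.

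Among close relatives of the members Klf15 changed most in total RNA. Of 17 tested EGR, KLF, NR4A and IER relatives 5 were higher in total RNA, namely Klf15 (1.39 ± 0.24), Klf7 (0.58 ± 0.13), Ier5l (0.48 ± 0.15), Klf13 (0.44 ± 0.14) and Klf3 (0.23 ± 0.08), and Klf16 was lower, where 19.7% of all genes tested were called higher and 20.7% lower. Klf15, a glucocorticoid-responsive metabolic regulator, was at 733, 431, 1098 and 571 normalized reads in mutant total RNA, against 232, 266, 258 and 258 in controls. It was the 1 relative called higher in polyribosomal RNA (1.39 ± 0.27, limma adjusted p = 0.00619), and Klf16 was the 1 called lower, having fallen by 0.73 ± 0.18. In efficiency 0 relatives were higher and 4 were lower (Klf3, Klf5, Klf11 and Klf13), and the largest called fall was that of Klf13, by 0.81 ± 0.15.

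Among 15 attenuators of the early response, 4 were higher and 2 lower in total RNA, shares near the 19.7% and 20.7% of all genes tested. Zfp36, which encodes a protein that destabilizes AU-rich mRNAs, was at 3042, 1297, 2919 and 1007 normalized reads in mutant cultures, against 885, 929, 601 and 824 in control cultures (1.21 ± 0.34, limma adjusted p = 0.0187). The MAP kinase phosphatase gene Dusp1 (0.74 ± 0.24) and the ERK pathway inhibitors Spry1 (0.43 ± 0.11) and Spry2 (0.29 ± 0.09) were higher too. The phosphatase gene Dusp2 fell by 1.17 ± 0.24, and Nab1, a corepressor of EGR proteins, fell by 0.50 ± 0.13. In polyribosomal RNA 0 attenuators were higher and 2 were lower, Dusp2 and Zfp36l2 (4 of 15 passed an unadjusted p under 0.05). In efficiency 0 were higher and 4 were lower, namely Dusp4, Spred2, Zfp36l1 and Zfp36l2, with falls of 0.61 to 0.74.

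Of 22 upstream regulators, 5 were higher in total RNA (Fgfr1, Fgfr2, Mapk3, Mef2d and Mkl1) with changes of 0.35 to 0.53, a share near the 19.7% of all genes tested. The genes of 2 activators that bind cAMP response elements, Creb1 and Atf1, fell by 0.34 ± 0.11 and 0.48 ± 0.10. They were the only 2 of the 22 called lower, a share below the 20.7% of all genes tested. In polyribosomal RNA Mef2c was higher (0.55 ± 0.15), and Fgfr3, Atf1 and Srf were lower. Of all genes tested there, 11.7% were called higher and 11.9% lower. Srf, which encodes the factor at CArG boxes, was at 9382, 10659, 9795 and 5955 normalized reads in mutant polyribosomal RNA, against 13395, 13398, 11165 and 13003 in controls, and fell by 0.54 ± 0.17 (limma adjusted p = 0.0388). In efficiency 0 of the 22 were higher and 4 were lower, namely Fgfr1, Fgfr3, Mef2d, and Mkl1, an SRF cofactor gene. The median changes of the lists of relatives, attenuators and upstream regulators in efficiency were -0.28, -0.26 and -0.19, against 0.01 for all genes. At an unadjusted p under 0.05 there were 6 relatives, 4 FOS, JUN and other early genes, 7 attenuators and 8 upstream regulators in efficiency, in either direction. In efficiency 5.07% of all genes tested were called higher and 7.89% lower. These shares, and those for polyribosomal RNA, also stand beside the counts of the other lists.

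**Figure D5:**
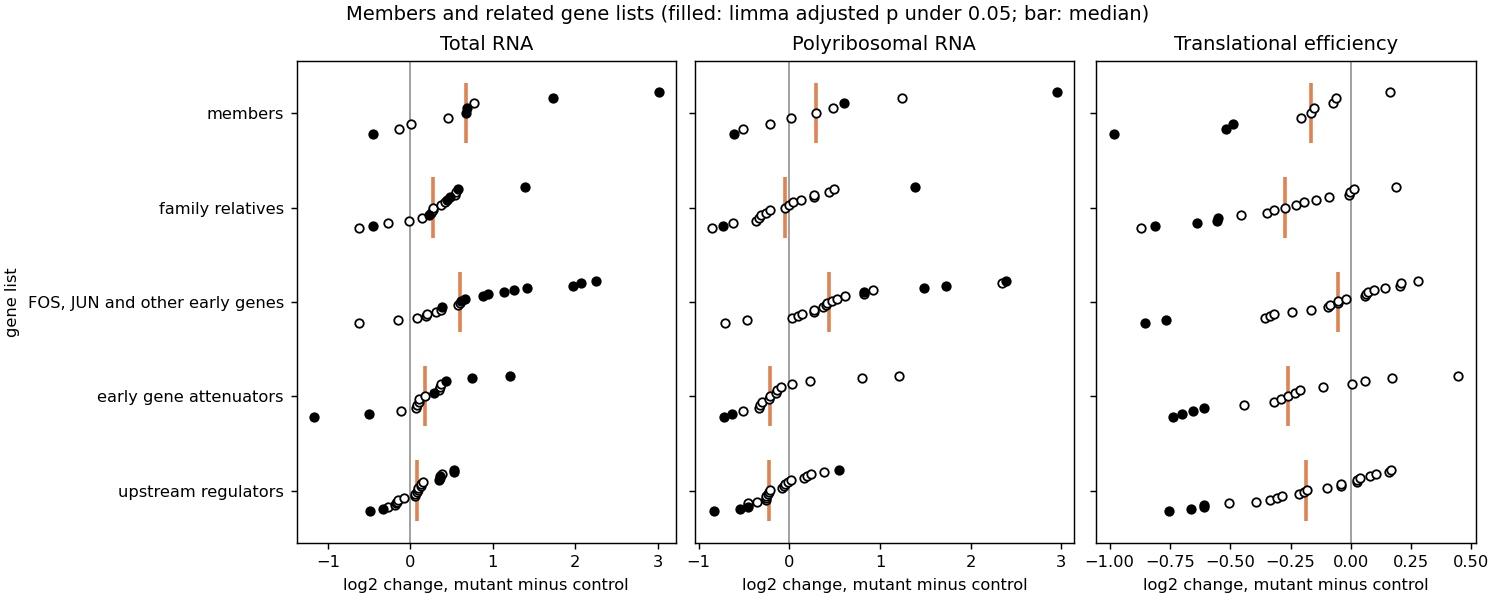
Log2 change, mutant minus control, of every tested gene of the members and of 4 related lists in total RNA, polyribosomal RNA and translational efficiency (4 cultures per genotype); filled points passed the test (limma adjusted p under 0.05) and orange bars are list medians. In total RNA 11 of 20 FOS, JUN and other early genes were called higher, and in efficiency the calls of all 5 lists were below 0.

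The genes whose pattern over the 8 libraries of each table was most like the mean of the members, after removal of the genotype means, were Fbxl16, Cbarp, Fbxo41, Fos and Rapgef3. The lower of their Pearson correlations in total and polyribosomal RNA was 0.97, 0.97, 0.96, 0.96 and 0.96 in that order. These coefficients describe 8 libraries per table, and the points share each library's preparation and scaling. Fos, the partner of JUN in AP-1, was at 6145, 2890, 5217 and 2371 normalized reads in mutant total RNA, against 2016, 2151, 1906 and 1934 in controls. Among the members themselves Nr4a1 was closest to the mean (r = 0.98 in total and 0.97 in polyribosomal RNA), and Klf10 was farthest from it (r = 0.34 and 0.72).

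The members had few exons, but their transcripts were not short. The main transcripts were 1522 to 4484 bases long, with a median of 3029 against 3057 for the 14089 tested genes with an annotated transcript. The median number of exons was 3 against 9, and Ier2 had 1 exon. The AUUUA pentamer, a core of AU-rich decay elements, occurred at a median of 2.25 per kilobase of 3′ untranslated sequence in members against 1.24 in all. The member median lay within the quartiles of all genes, 0 and 2.59. It was most frequent in Nr4a1 (5.49 per kilobase) and had 0 copies in Ier2. None of the 9 overlapped another annotated gene, which matters because the libraries did not mark strand. In GRCm38 the gene of Klf2 spans chr8:72319033-72321656, Klf4 chr4:55527143-55532466, Klf6 chr13:5861482-5870394, Klf10 chr15:38291463-38300706, Nr4a1 chr15:101254269-101274795, Ier2 chr8:84661331-84662852, Egr2 chr10:67535475-67542188 and Egr3 chr14:70077203-70082614. All are protein-coding.

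Promoter sequence was taken for 5 members from the RefSeq table of build GRCm38.p6. The sequence and position of Egr1 are not reported here. The 250 bases before the start site are shown for the 4 genes called higher in total RNA, and for Egr2 as an EGR gene that was not called, because the members moved together across the mutant cultures. The 8 motifs searched on both strands were the CArG box (CC, then 6 bases of A or T, then GG), TGACG (the core of a cAMP response element), TGACGTCA (the full element, which holds that core), the CCAAT box, the TATA box TATAAA, the EGR protein motif GCGNGGGCG, the motif GGGCGG (the GC box, which can overlap the EGR motif) and AAAGGTCA (bound by NR4A proteins). Capitals mark matches to the CArG box, TGACG, the CCAAT box and the TATA box. Of 32851 promoters of this length 1.47% held a CArG box, 17.8% TGACG, 1.55% TGACGTCA, 33.8% CCAAT, 12.4% TATAAA, 4.70% GCGNGGGCG, 32.7% GGGCGG and 1.34% AAAGGTCA.
Klf2 (plus strand, chr8:72318812-72319061): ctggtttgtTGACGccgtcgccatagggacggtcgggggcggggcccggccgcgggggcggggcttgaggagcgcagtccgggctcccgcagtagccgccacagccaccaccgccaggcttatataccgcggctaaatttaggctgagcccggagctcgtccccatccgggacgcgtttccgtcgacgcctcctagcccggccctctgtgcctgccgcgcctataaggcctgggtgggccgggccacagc
Klf4 (minus strand, chr4:55532476-55532725): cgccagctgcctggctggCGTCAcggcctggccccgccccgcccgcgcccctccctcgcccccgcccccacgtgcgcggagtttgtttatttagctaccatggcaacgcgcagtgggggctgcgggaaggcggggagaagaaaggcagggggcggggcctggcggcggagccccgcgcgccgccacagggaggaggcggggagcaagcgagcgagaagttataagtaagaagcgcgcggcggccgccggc
Klf6 (plus strand, chr13:5861239-5861488): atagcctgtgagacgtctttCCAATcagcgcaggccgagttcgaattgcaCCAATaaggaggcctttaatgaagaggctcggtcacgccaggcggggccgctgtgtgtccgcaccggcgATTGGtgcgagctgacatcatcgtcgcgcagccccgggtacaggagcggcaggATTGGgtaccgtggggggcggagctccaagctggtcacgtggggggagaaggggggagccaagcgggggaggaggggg
Nr4a1 (plus strand, chr15:101266596-101266845): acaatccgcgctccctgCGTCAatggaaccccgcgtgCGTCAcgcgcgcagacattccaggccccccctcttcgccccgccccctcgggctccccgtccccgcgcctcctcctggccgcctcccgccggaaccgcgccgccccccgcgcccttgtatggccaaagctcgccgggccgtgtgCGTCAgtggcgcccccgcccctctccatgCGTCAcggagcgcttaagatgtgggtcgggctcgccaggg
Egr2 (plus strand, chr10:67537619-67537868, 1 of 5 annotated starts): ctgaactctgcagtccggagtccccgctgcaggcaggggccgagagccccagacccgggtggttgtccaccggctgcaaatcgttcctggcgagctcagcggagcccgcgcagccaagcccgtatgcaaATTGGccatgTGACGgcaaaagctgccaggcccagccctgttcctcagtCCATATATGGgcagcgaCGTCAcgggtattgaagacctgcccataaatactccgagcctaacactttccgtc

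Klf2 and Klf4 each held 1 TGACG core, and Nr4a1 held 4 of them. The EGR motif GCGNGGGCG matched 1 time in Klf2, 2 times in Klf4 and 1 time in Nr4a1. The GC box GGGCGG matched in Klf2, Klf4, Klf6 and Nr4a1 and not in the printed Egr2 window. Klf6 held 4 CCAAT boxes. The Egr2 window shown is that of the start of its principal GENCODE transcript. It held 1 CArG box, 72 to 63 bases before the start, with 2 TGACG cores and 1 CCAAT box around it. Of the 4 other annotated Egr2 starts, 2 lie so near that their windows hold the same matches, 1 lies further upstream with another CArG box and neither TGACG nor CCAAT, and the most upstream one matched none of the 3. The other 4 printed windows held no match to the CArG box. Such matches describe the sequence and were not tested as binding sites.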

How the data were processed

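Total and polyribosomal RNA of 4 mutant and 4 control cultures was sequenced as paired ends after poly(A) selection, without strand information. The authors trimmed the reads, aligned them to mm10 with STAR and normalized them with DESeq2; which program counted the reads, and with which annotation, is not given in the sources used here. The deposited values are a signal, read counts scaled by library factors, in 1 table per fraction, each normalized separately, with 0 columns of no sample. Of 24972 rows, 26 whose symbols had become dates were left out. Low values lay within 0.1 of a whole multiple of a library's step in 74.6% to 94.2% of cases, so whole reads were not recovered, no count model was used, and depth was estimated as the column total over the step.

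Tests were run on log2(value + 1) in limma 3.58.1 (R 4.3.3) with robust moderation, a trend of the variance on expression and Benjamini-Hochberg adjustment over all genes with a mean of at least 10, at a threshold of 0.05. Changes on this scale understate those of low genes, and ± is a standard error unless marked SD. Efficiency was fitted over 16 libraries as the interaction of genotype and fraction with culture as a block, since both libraries of a culture share a label (their deviations correlated at 0.23 to 0.73); polyribosomal against total RNA within a genotype crosses tables and was not tested. The fits were tested on simulated data. Members and lists were chosen with earlier results of these data known. Named were all members, up to 4 genes of each other list by smallest p, any 5 or fewer called, and the 5 genes most like the members. Levels per kilobase, transcript features and gene positions used the longest principal GENCODE M21 transcript of each gene. Alternatives covered pseudocounts of 0.5 and 4, a filter at 50 or none, other scalings, no trend or robust moderation, a Y-linked covariate, the replicate block and libraries left out.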

Additional observations from a re-analysis of the deposited data

Results flagged for a closer look

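Among 36 groups of 4 libraries, 5 held a library that stood far from the other 3, where chance gives about 1 in 20 groups. Each of them was a control. The rule looks for 1 library apart from the other 3, so mutant cultures that split into pairs do not trip it. Both fractions of a culture are counted, so the groups are not independent. Egr2 was at 353 normalized reads in total RNA and 482 in polyribosomal RNA of control culture 3, below the other controls in both fractions. Egr3 was at 346 in total RNA of control culture 4, above the other controls. Klf6 was at 6059 in total RNA of control culture 1, and Ier2 at 7220 in polyribosomal RNA of the same culture, both below the other controls.

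The genotype change differed between polyribosomal and total RNA, by the limma interaction test, for 3 members. The polyribosomal change was lower than the total RNA change by a log2 difference of -0.98 for Egr3, -0.52 for Egr1 and -0.49 for Klf4.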

How the results depend on the processing

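Pseudocounts of 0.5 and 4 and a filter at a mean of 50 changed no member's call. The members called lower in total RNA (1, Klf10) were 0 under equal column totals, equal upper quartiles, limma without trend and robust moderation, the replicate block, the Y-linked covariate, without mutant cultures 2 and 4, and without mutant cultures 1 and 3; Klf10 kept its direction in each. The members called higher in total RNA (4) were 2 without trend and robust moderation, 1 with the Y-linked covariate and 2 without mutant cultures 1 and 3. In polyribosomal RNA the members called higher (2) were 3 under equal column totals, which added Klf4, 5 without mutant cultures 2 and 4, 1 without mutant cultures 1 and 3 and 0 with the Y-linked covariate, where those called lower were 0 too (2 higher and 1 lower at an unadjusted p under 0.05). All genes called were 6035 in total RNA, 1063 with the Y-linked covariate and 2296 without mutant cultures 1 and 3. In polyribosomal RNA they were 3403, and 5402, 30 and 1168 without mutant cultures 2 and 4, with the covariate and without cultures 1 and 3. In efficiency they were 1858, and 0 without trend and robust moderation, with the covariate, without the culture block and without cultures 1 and 3, where members called lower were 0 as well; the genes at an unadjusted p under 0.05 were 3980, 2214, 2221 and 3250 in that order. Unfiltered, efficiency called 1350 genes and 2 members lower, without Egr1.

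Leaving out 1 culture gave 4195 to 6649 genes in total RNA, 1884 to 4087 in polyribosomal RNA and 649 to 3282 in efficiency, with 1 to 6 members higher and 0 to 1 lower in total RNA, 0 to 3 higher and 0 to 1 lower in polyribosomal RNA, and 0 higher and 1 to 3 lower in efficiency. Log2 changes that were not called and passed through 0 ran from -0.20 to 0.25 for Egr1 in total RNA, -0.49 to 0.18 for Egr3 and -0.17 to 0.19 for Ier2 in polyribosomal RNA, and -0.14 to 0.035 for Klf2 and -0.16 to 0.040 for Klf6 in efficiency. Without mutant cultures 2 and 4, Ier2 in total RNA was 0.027, Egr1 and Egr3 in polyribosomal RNA 0.0046 and 0.31, and Egr2, Klf2 and Nr4a1 in efficiency 0.051, 0.17 and 0.038. With the covariate, Ier2 in total RNA was 0.16, Egr1 in polyribosomal RNA 0.0089 and Klf2 in efficiency 0.012. Without mutant cultures 1 and 3, an alternative chosen after seeing the data, Egr1 and Egr2 in total RNA were -0.29 and -0.00083, Egr2, Nr4a1 and Ier2 in polyribosomal RNA -0.38, -0.24 and -0.34, and Klf6 and Ier2 in efficiency 0.10 and -0.033. The causes were not tested.

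Same-numbered mutant and control cultures are different cultures, and their deviations correlated at -0.11 to 0.13 in total and -0.13 to 0.06 in polyribosomal RNA, so the numbers were not taken to pair them. With the replicate block 4741 genes were called in total and 2361 in polyribosomal RNA; the limma adjusted p was 0.0723 for Klf2 and 0.0455 for Klf4 in polyribosomal RNA and 0.0552 for Klf10 in total RNA, and no other member's call changed. With 4 cultures per genotype, sex unbalanced between the genotypes and 2 mutant cultures far from the other 2, the sizes of the called changes are imprecise.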
